A study of Mus musculus with 6 samples.

Results

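In all, 9 genes of the urea cycle and of ammonia handling were followed in primary hepatocytes from undamaged liver and from liver regenerating after partial hepatectomy (PHx). They were chosen by name among the 55450 genes of the count files, and each name matched a single gene of the GENCODE M21 annotation. They are Cps1, Otc, Ass1 and Asl, which encode cycle enzymes, the activating enzyme Nags, the ornithine carrier Slc25a15, and the glutamine and ornithine enzymes Gls2, Glul and Oat. Hepatocytes were isolated by collagenase perfusion from mice labelled as C57BL/6, 10 to 12 weeks old and kept on a normal diet. The study's methods describe them as male C57BL/6J mice and give a slightly younger age. RNA-Seq libraries were made from 3 undamaged livers (0 h) and from 3 livers 48 h after PHx, each library from a separate hepatocyte preparation. The 0 h mice are an undamaged rather than a sham-operated control, so the surgery and the loss of liver mass cannot be told apart here.

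The urea cycle turns toxic ammonia into urea, and in mammals the complete cycle runs in hepatocytes. Carbamoyl phosphate is made in the mitochondrion by Cps1 and joined to ornithine by Otc, after which citrulline leaves the mitochondrion and Ass1 and Asl act in the cytosol. The cycle and the glutaminase Gls2 are typical of periportal hepatocytes, whereas the glutamine synthetase Glul and the ornithine aminotransferase Oat are typical of the hepatocytes around the central vein, which capture ammonia that the cycle has left over. Because each bulk library averages all cells of a preparation, fewer cells expressing a gene and less RNA per cell cannot be told apart.

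Gene counts summed to between 31419443 and 36346220 per library, and each of the 9 genes had at least 1096 counts in every library, so that counting error was small beside the spread between mice. All 9 genes passed the filter on low counts that left 17037 genes for testing. The 13 hepatocyte markers examined, albumin among them, were all detected, 7 of them lower and 2 higher at 48 h in edgeR (69.2% called, beside 40.7% of all genes tested, 19.3% lower and 21.4% higher), whereas Krt19, which marks bile duct cells, had 0 to 4 counts per library, and the neutrophil gene S100a8 had 0 or 1. Other markers of these cells were present, with 228 to 662 counts per library for Sox9 and 29 to 256 for Spp1 of the bile duct list (Spp1 called higher, log2 fold change 1.51), and the neutrophil genes Camp and Elane went from 0 to 3 and 1 to 5 counts at 0 h to 6 to 26 and 8 to 16 counts at 48 h. Of the other neutrophil genes, S100a9 had 0 to 3 counts at 0 h and 0 at 48 h. Ngp had 0 to 2 counts at both time points, and 3 genes had 0 counts in every library. In the 0 h libraries, the 12 Kupffer cell markers summed to 83.1 to 124 TMM-normalized CPM (counts scaled to the same library total after adjustment by the trimmed mean of M-values, TMM), and at 48 h to 119 to 147, so that the time points overlapped. Without TMM they were apart, at 77.7 to 116 and 121 to 161 CPM. Of these 12, 3 were higher at 48 h and 0 lower in edgeR (25% called), and 0 were lower at an unadjusted p under 0.05 or by DESeq2. The 12 endothelial markers were lower, with sums of 297 to 465 TMM-normalized CPM at 0 h and 204 to 233 at 48 h, and 11 were called lower and 0 higher in edgeR (91.7% called), and 0 higher at an unadjusted p under 0.05 or by DESeq2. Whether RNA from these other cells contributes to the values below was not tested.

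Between 0 h and 48 h after PHx, the most abundant cycle enzymes showed no change past the threshold, while other genes of the set moved in both directions. Oat, Nags and Glul rose, Otc and Gls2 fell, and Cps1, Ass1, Asl and Slc25a15 did not pass an adjusted p of 0.05 in the quasi-likelihood test of edgeR, with p-values adjusted by Benjamini-Hochberg over all genes. The 5 genes called of 9 compare with 40.7% of all genes tested, 21.4% called higher and 19.3% called lower, so 55.6% of the set was called, a share near the background for a set of this size. The same 5 genes were those whose 3 libraries at 48 h lay entirely above or below the 3 at 0 h, a pattern shown by 52.7% of all genes tested, 27.8% upwards and 25% downwards. With library size only, 71.6% of all called genes were higher, against 52.5% with TMM, which was used for the tests, and the 9 genes gave 3 higher and 2 lower with either scaling. The median log2 fold change of the 9 genes was -0.17, beside -0.0033 over all genes tested.

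**Figure D1:**
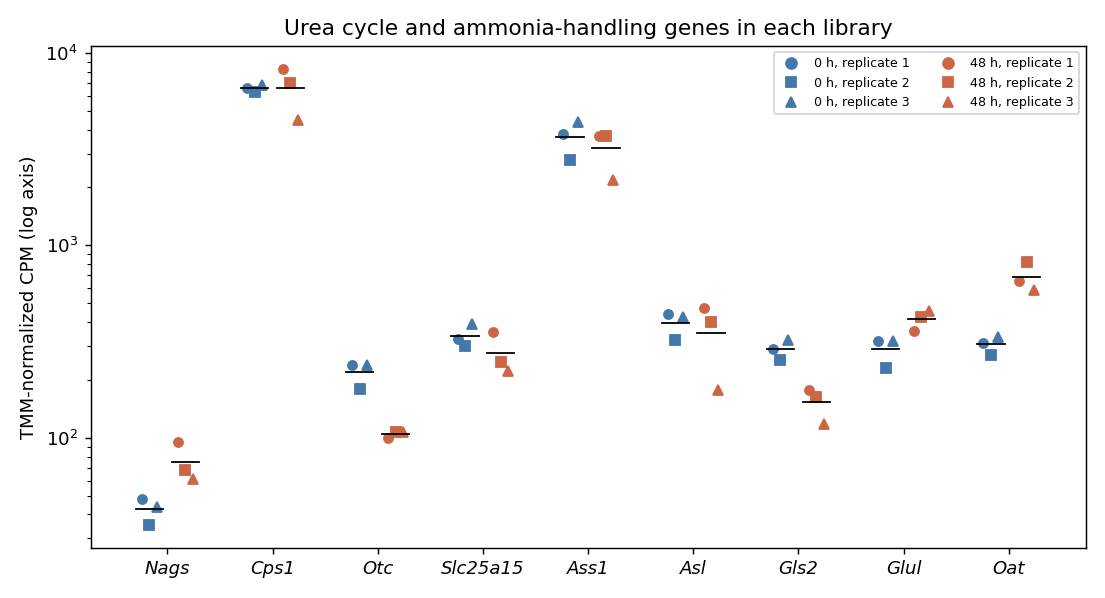
TMM-normalized CPM of each gene (log axis) in the 3 libraries at 0 h (blue) and the 3 at 48 h after PHx (orange), with a symbol per replicate and a black line at the mean. Oat, Nags and Glul lie higher at 48 h and Otc and Gls2 lower, with no overlap, and replicate 3 at 48 h is the lowest library of its group for 7 of the 9 genes.

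For 6 of the 9 genes a RefSeq promoter window was at hand, and those of the 4 called genes among them are shown. Otc is the only falling gene with a window. Each is the 250 bases before the RefSeq transcription start on GRCm38.p6, 5′ to 3′ on the gene's strand. Capitals mark matches to the letters searched on both strands: the TATA box searched as TATAAA, the cAMP response element as TGACGTCA, the C/EBP motif as TTGCGCAA, the HNF4 motif as CAAAGTCC, the TCF/LEF motif as CTTTGAT or, in its other form, as CTTTGAA, the glucocorticoid receptor motif as AGAACA, and the CCAAT box, which was added after the windows were seen. No motif found overlapped another.
Otc, lower at 48 h, chrX:10252055-10252304, plus strand: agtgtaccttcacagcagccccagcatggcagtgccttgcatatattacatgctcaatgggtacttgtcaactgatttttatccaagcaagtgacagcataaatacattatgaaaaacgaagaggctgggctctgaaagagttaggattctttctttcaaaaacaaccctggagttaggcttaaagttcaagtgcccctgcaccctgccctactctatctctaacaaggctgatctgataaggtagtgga
Nags, higher at 48 h, chr11:102145263-102145512, plus strand: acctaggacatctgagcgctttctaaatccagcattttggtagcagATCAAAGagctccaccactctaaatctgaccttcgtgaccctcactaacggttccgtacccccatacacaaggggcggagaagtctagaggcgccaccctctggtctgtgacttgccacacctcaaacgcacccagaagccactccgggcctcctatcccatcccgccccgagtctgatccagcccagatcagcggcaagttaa
Glul, higher at 48 h, chr1:153899679-153899928, plus strand: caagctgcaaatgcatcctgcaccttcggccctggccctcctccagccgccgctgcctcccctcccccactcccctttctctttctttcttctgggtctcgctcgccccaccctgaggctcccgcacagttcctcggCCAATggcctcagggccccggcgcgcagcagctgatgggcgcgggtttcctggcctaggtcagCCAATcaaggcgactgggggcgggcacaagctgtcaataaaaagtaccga
Oat, higher at 48 h, chr7:132576399-132576648, minus strand: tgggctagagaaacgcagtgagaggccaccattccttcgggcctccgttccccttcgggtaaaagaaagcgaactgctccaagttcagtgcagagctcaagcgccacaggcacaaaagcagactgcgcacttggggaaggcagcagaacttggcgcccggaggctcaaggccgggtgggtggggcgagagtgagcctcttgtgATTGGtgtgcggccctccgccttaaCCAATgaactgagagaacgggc

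The Otc window held none of these letters and was the poorest in G and C, at 43.6%, beside 55.6% for Nags, 64.8% for Glul and 60.0% for Oat and a median of 52.4% over all 32851 windows. The windows of Ass1 (75.6% G and C) and Slc25a15 (57.6% and 80.4%), which were not called, held none of these letters either. The lack of matches was therefore not particular to Otc. The Nags window held CTTTGAT on the other strand, its match starting 204 bases before the start site, letters found in 3.21% of all windows. The Glul and Oat windows each held CCAAT at 2 places, which 33.8% of all windows hold at least once. Of all windows, 12.4% held TATAAA, 1.55% TGACGTCA, 0.164% TTGCGCAA, 1.2% CAAAGTCC, 4.46% CTTTGAA and 16.1% AGAACA, none of which was found in the 4 windows shown. These matches are descriptions of letters in short windows, and no binding was measured here.

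Cps1 (ENSMUSG00000025991.8; chromosome 1, 67123026 to 67231259, GRCm38), the carbamoyl phosphate synthetase that commits ammonia to the cycle, was the most highly counted of the 9 genes. It stood at 6552, 6287 and 6778 TMM-normalized CPM in replicates 1, 2 and 3 at 0 h, and at 8277, 6971 and 4504 at 48 h. Here and below, values are given in this order of replicates and in this unit, and means are followed by ± the SD over the 3 libraries of a time point (n = 3). The means were nearly equal, 6539 ± 246 and 6584 ± 1916, but the 48 h libraries spread on both sides of the 0 h libraries. The coefficient of variation was 3.76% at 0 h and 29.1% at 48 h. Its log2 fold change was 0.01 (95% interval -0.48 to 0.50, adjusted p = 0.976, edgeR), and this interval includes 0.

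Otc (ENSMUSG00000031173.13; chromosome X, 10252305 to 10321024) encodes ornithine transcarbamylase, which acts directly after Cps1 in the mitochondrion, and it was the only one of the 4 cycle enzymes to be called. It measured 239, 180.4 and 239 CPM at 0 h and 99.3, 107 and 107 CPM at 48 h, so every 48 h library was below every 0 h library. From 219.6 ± 33.9 CPM the mean fell to 104 ± 4.48 CPM, and the log2 fold change was -1.07 (standard error 0.135, 95% interval -1.37 to -0.77, adjusted p = 0.000148, edgeR). In contrast to those of Cps1, its 48 h libraries were close together, with a coefficient of variation of 4.29% against 15.5% at 0 h. Over 18 alternative settings the log2 fold change of Otc stayed between -1.21 and -0.87.

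The cytosolic enzymes Ass1 and Asl overlapped between the time points. Ass1 (ENSMUSG00000076441.9; chromosome 2, 31470207 to 31520672), which joins citrulline to aspartate, stood at 3809, 2768 and 4397 CPM at 0 h and at 3722, 3692 and 2189 CPM at 48 h. Its log2 fold change was -0.19 (95% interval -0.73 to 0.34, adjusted p = 0.557, edgeR). Asl (ENSMUSG00000025533.15; chromosome 5, 130011258 to 130029247), which releases arginine and fumarate, measured 438, 323 and 423 CPM at 0 h and 474, 402 and 176 CPM at 48 h, the widest spread among the 9 genes (coefficient of variation 44.3% at 48 h). Its log2 fold change was -0.17 (95% interval -0.82 to 0.49, adjusted p = 0.678, edgeR), and replicate 3 alone lay below the 0 h libraries. Without 48 h replicate 3, the log2 fold changes of Ass1 and Asl became 0.03 and 0.16, so no direction is given for these genes.

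Nags (ENSMUSG00000048217.11; chromosome 11, 102145513 to 102149477) makes N-acetylglutamate, the obligate activator of Cps1, and was the least abundant of the 9 genes in CPM. It rose from 48.2, 35.3 and 43.8 CPM at 0 h to 94.7, 68.2 and 61.5 CPM at 48 h, with the lowest 48 h library above the highest 0 h library. The log2 fold change was 0.82 (standard error 0.171, 95% interval 0.44 to 1.20, adjusted p = 0.00346, edgeR), the means being 42.5 ± 6.55 and 74.8 ± 17.6 CPM. An antisense gene, Gm11586, overlaps 15.6% of the exon bases of Nags and had only 7 to 15 counts per library. Whether reads were counted by strand is not given in the sources used here, so reads in that stretch could belong to either gene.

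Slc25a15 (ENSMUSG00000031482.9; chromosome 8, 22375551 to 22398597), which exchanges ornithine and citrulline across the inner mitochondrial membrane, stood at 325, 299 and 389 CPM at 0 h and 356, 247 and 224 CPM at 48 h. These libraries overlapped, and its log2 fold change was -0.29 (95% interval -0.70 to 0.12, adjusted p = 0.235, edgeR). Without 48 h replicate 1, however, it was called lower, with a log2 fold change of -0.52 (adjusted p = 0.0225, edgeR), so its call rests on which libraries are included.

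The 3 glutamine and ornithine enzymes were all called, in opposite directions. Gls2 (ENSMUSG00000044005.13; chromosome 10, 128194457 to 128210004), the liver glutaminase that releases ammonia from glutamine, fell from 290.4, 254 and 324 CPM at 0 h to 178, 163 and 118 CPM at 48 h. Its mean went from 289.6 ± 35.0 to 153 ± 31.4 CPM, and its log2 fold change was -0.92 (standard error 0.167, 95% interval -1.29 to -0.55, adjusted p = 0.0015, edgeR). Glul (ENSMUSG00000026473.15; chromosome 1, 153899944 to 153909723), which uses ammonia to make glutamine, rose from 318, 231 and 320.0 CPM to 361, 423 and 457 CPM. Its mean of 289.6 ± 50.5 at 0 h reached 414 ± 49.0 at 48 h, with 0.51 as the log2 fold change (standard error 0.159, 95% interval 0.16 to 0.87, adjusted p = 0.0254, edgeR). The Glul result was the weakest of the 5 calls: its adjusted p (edgeR) became 0.0627 without 0 h replicate 2, 0.0679 without 48 h replicate 2 and 0.0682 without 48 h replicate 3. Oat (ENSMUSG00000030934.9; chromosome 7, 132557478 to 132576398), which turns ornithine into a precursor of glutamate and proline, rose from 312, 269 and 336 CPM to 653, 819.6 and 589 CPM. Its means were 306 ± 33.6 and 687 ± 119 CPM, with a log2 fold change of 1.17 (standard error 0.159, 95% interval 0.82 to 1.52, adjusted p = 0.000242, edgeR). Genes on the opposite strand overlap 2.79% of the exon bases of Gls2 (Spryd4, 315 to 594 counts per library) and 3.49% of those of Glul (Teddm2, 20 to 87 counts), where the same limit holds. On the same strand, Mir8114 overlaps 2.8% of the exon bases of Glul and had 0 counts in every library. Counting by strand would not separate that overlap.

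**Figure D2:**
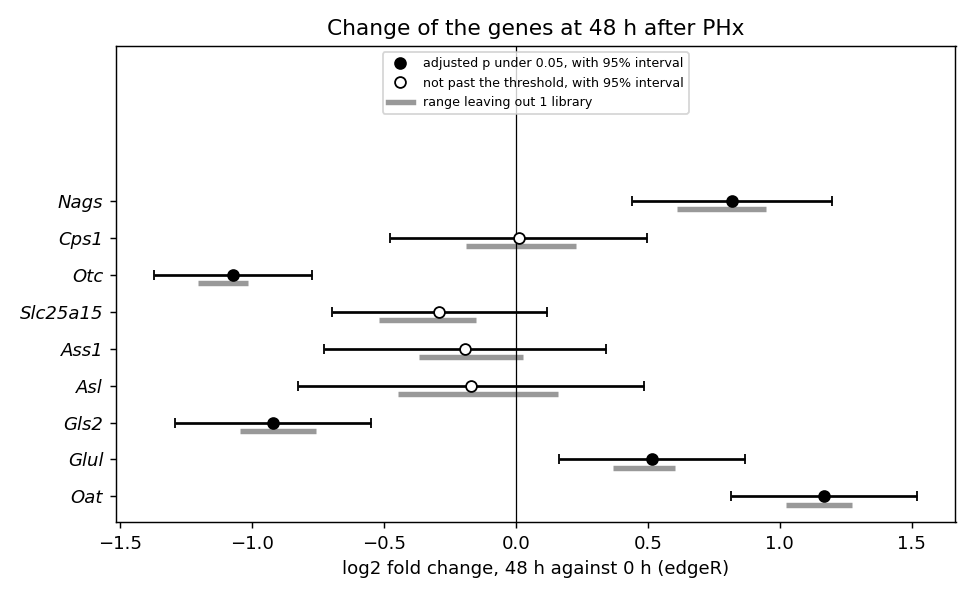
Log2 fold change of each gene at 48 h against 0 h (x axis, edgeR) with its 95% interval, filled where the adjusted p was under 0.05, and in grey the range when 1 library at a time was left out. The intervals of Nags, Glul and Oat lie above 0 and those of Otc and Gls2 below it, whereas the intervals of Cps1, Slc25a15, Ass1 and Asl include 0.

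Ratios of counts within a library do not depend on the scaling between libraries, and 2 such ratios were tested between the time points by exact permutation (two-sided), where 3 libraries against 3 allow no p under 0.1. Glul and Gls2, the perivenous and the periportal end of glutamine handling, had nearly equal counts at 0 h, with Glul at 1.09, 0.910 and 0.987 times the counts of Gls2. At 48 h this ratio was 2.03, 2.6 and 3.88, above all 0 h libraries. The mean log2 ratio moved from -0.01 ± 0.13 to 1.45 ± 0.47, a difference of 1.46 (exact permutation p = 0.1). Oat over Cps1 also separated the time points, with a mean log2 ratio of -4.42 ± 0.11 at 0 h and -3.23 ± 0.38 at 48 h (exact permutation p = 0.1). Adjusted over the ratios tested, these p-values cannot fall under 0.1. A further 2 ratios were chosen after the values were seen and were not tested. The log2 ratio of Otc to Cps1 was -4.91 ± 0.19 at 0 h and -5.93 ± 0.50 at 48 h, and that of Nags to Cps1 was -7.28 ± 0.19 and -6.44 ± 0.24. In both ratios, each 48 h library lay outside the range at 0 h, with Otc lower relative to Cps1 and Nags higher.

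**Figure D3:**
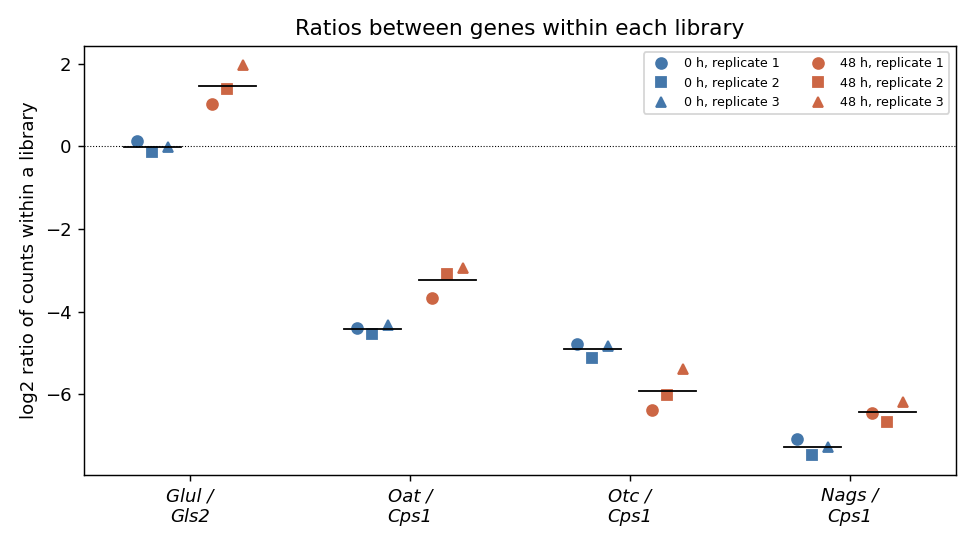
Log2 ratio of the counts of a pair of genes within each library (y axis), at 0 h (blue) and 48 h (orange), with a symbol per replicate and a line at the mean. Glul over Gls2, Oat over Cps1 and Nags over Cps1 are higher in every 48 h library, and Otc over Cps1 is lower.

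The order of the genes by level was compared per length, as CPM (without TMM scaling) per kb of exon. At 0 h, Ass1 (1410 ± 293) and Cps1 (1098 ± 20.4) led the set, and their ranges over libraries overlapped, although Ass1 was above Cps1 within each of the 6 libraries of both time points. They ranked 31 and 39 among the 17037 genes tested. Oat (121 ± 11.1) followed, apart from its neighbours. Glul (81.2 ± 13.0), Gls2 (77.6 ± 7.88) and Asl (76.1 ± 11.2) overlapped over libraries, as did Slc25a15 (55.8 ± 6.54) and Otc (48.2 ± 6.79) below them. Within each 0 h library, Glul was above Asl and Slc25a15 above Otc, whereas Gls2 changed places with Glul and with Asl between libraries. Nags was lowest, at 13.9 ± 2.04. At 48 h, Ass1 and Cps1 still led, with levels of 1416 ± 362 and 1263 ± 325. Oat was again next, at 313 ± 58.9, and moved from rank 292 to rank 114 among the genes tested. Glul followed at 134 ± 21.3, now apart from Gls2 (47.0 ± 8.28). Otc, at 26.4 ± 2.28, and Nags, at 28.1 ± 5.24, overlapped at the bottom of the order, whereas at 0 h every library of Otc was above every library of Nags. With the length of the longest transcript in place of all exon bases, Asl (152) stood above Oat (132) at 0 h, so these places depend on the length used.

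**Figure D4:**
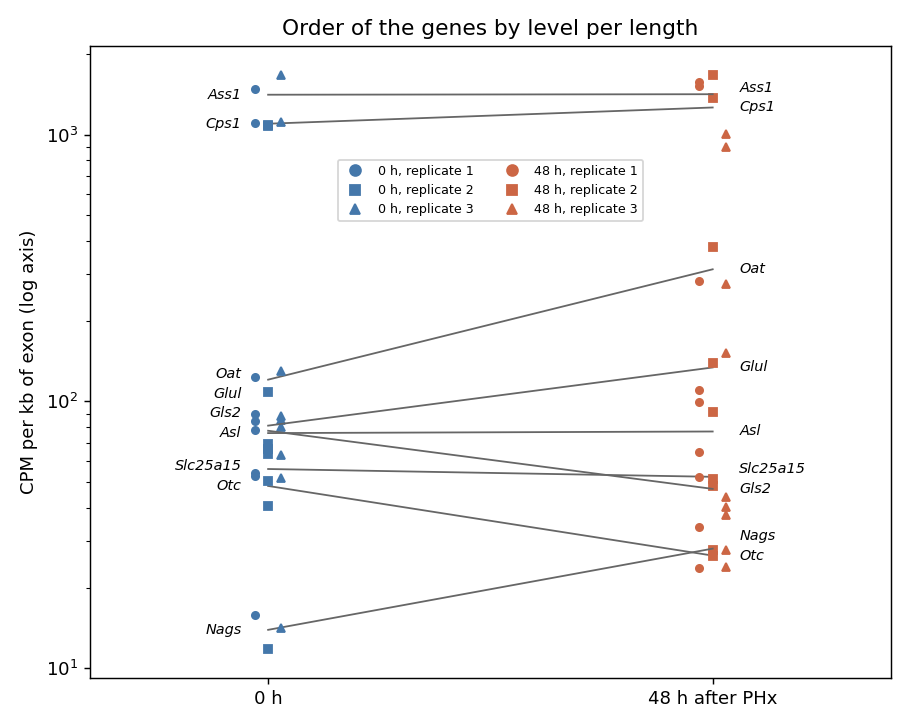
Level of each gene as CPM per kb of exon (log axis) at 0 h and 48 h after PHx, with a symbol per library and a line joining the means. Ass1 and Cps1 stay at the top, Oat rises below them, Glul and Gls2 part, and Otc and Nags meet at the bottom.

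Together the 4 cycle enzymes made up 1.03%, 0.908% and 1.08% of gene counts at 0 h, and 1.28%, 1.22% and 0.771% at 48 h, with overlap between the time points and no test on this sum. Cps1 alone gave 57.3% to 65.8% of the counts of these 4 enzymes at 0 h and 62.4% to 65.8% at 48 h. Of the 0 h libraries, replicate 2 was the lowest of its group for 9 of the 9 genes, and of the 48 h libraries replicate 3 was so for 7 of 9, with Otc and Glul the exceptions. For the 3390 genes whose mean reached 40 CPM, a limit set after the values were seen, these libraries were the lowest of their group for 59.0% and 33.9%. The 0 h library had the largest share of reads on no gene (32.7%, against 24.3% to 29.3% in the others), and its part in these values was not tested. Leaving out both libraries, Otc, Gls2, Nags and Oat were called in the same direction, with log2 fold changes of -1.20, -0.84, 0.83 and 1.19, and Glul was not (log2 fold change 0.31, adjusted p = 0.113, edgeR).

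Genes that supply the cycle with nitrogen, bicarbonate and aspartate changed in both directions. Of 20 such genes, 19 were tested, 8 were lower and 4 higher at 48 h in edgeR (63.2% called, beside 40.7% of all genes), with a median log2 fold change of -0.07. The largest falls were in Aqp8, an aquaporin that also conducts ammonia (log2 fold change -2.35, from 50.5 to 9.92 CPM in the means), in the amino acid transporter Slc38a4 (-1.03, from 1682 to 823 CPM) and in the alanine aminotransferase Gpt (-0.81). Car5a, the mitochondrial carbonic anhydrase that supplies bicarbonate to Cps1, and the glutamine transporter Slc38a3 were lower as well (-0.68 and -0.78), and both were picked out after their values were seen. The largest increases were in fumarate hydratase Fh1 (0.96), the malate dehydrogenase Mdh2 (0.91) and the aspartate/glutamate carrier Slc25a12 (0.56). Their adjusted p-values in edgeR ranged from 4.73e-06 for Aqp8 to 0.0108 for Car5a. Slc25a12 had means of 17.7 CPM at 0 h and 26.1 CPM at 48 h. The more abundant aspartate/glutamate carrier Slc25a13 (175 and 186 CPM) was not called (0.09), nor was the malate dehydrogenase Mdh1 (-0.07). Scaled by library size only, 6 genes of this list were lower and 4 higher.

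Ornithine and glutamine are also used by other pathways. Of 19 tested genes of ornithine, proline, arginine and polyamine metabolism, 6 were higher and 3 lower in edgeR (47.4% called, near the 40.7% of all genes), and their median log2 fold change was 0.11. The largest increases were in Aldh18a1 of proline synthesis (log2 fold change 2.62), in the spermidine synthase Srm (1.10) and in Amd1 (1.03), which supplies the aminopropyl groups of polyamines. The 3 that fell were the polyamine oxidase Paox (-1.71), the proline dehydrogenase Prodh (-1.38) and the creatine enzyme Gamt (-0.67), which was not called without 0 h replicate 1 or 3 (adjusted p 0.0545 and 0.0672, edgeR). Aldh18a1 was at only 0.591 ± 0.173 CPM at 0 h and 3.67 ± 2.49 CPM at 48 h, far below Oat, which feeds the same intermediate from ornithine, and without 48 h replicate 1 its log2 fold change was 1.92. Among 12 enzymes that use the amide nitrogen of glutamine or make pyrimidines, 9 were higher and 0 lower in edgeR (75% called; 1 lower at an unadjusted p under 0.05, 0 by DESeq2). Among the largest increases were those of the asparagine synthetase Asns (2.58, from 2.83 ± 1.46 to 16.8 ± 10.6 CPM) and the CTP synthetases Ctps (2.52) and Ctps2 (1.0). Without 48 h replicate 1, which stood at 28.9 CPM, the log2 fold change of Asns was 1.93. Their median log2 fold change was 0.73. Among 18 genes of amino acid breakdown and of purine deamination (Ada, Ampd2 and Ampd3), reactions that release ammonia or belong to pathways that do, 7 were lower, Ampd2 among them, and 0 higher in edgeR (38.9% called, near the 40.7% of all genes; 1 higher at an unadjusted p under 0.05 and by DESeq2, 3 higher with library size only). The largest falls were in the asparaginase Aspg (-1.48), the histidine ammonia-lyase Hal (-1.45, from 442 to 162 CPM) and Ftcd of histidine breakdown (-1.31). Their median log2 fold change was -0.31. No test compared these lists with other genes.

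**Figure D5:**
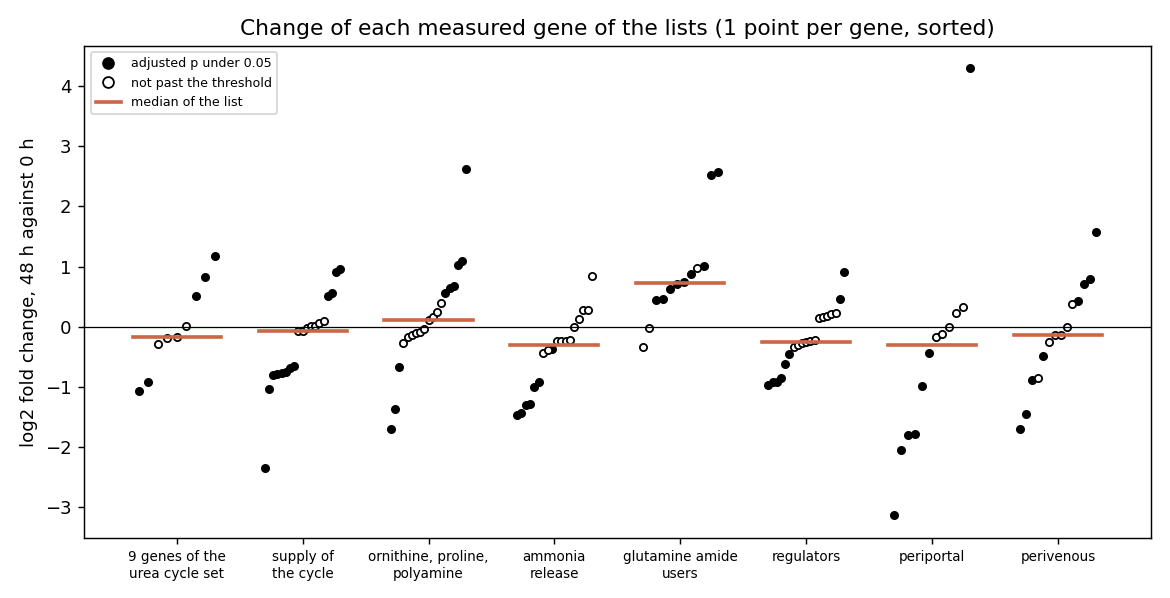
Log2 fold change at 48 h against 0 h (y axis, edgeR) of every tested gene of the 9-gene set and of 7 related lists, 1 point per gene sorted within its list, filled where the adjusted p was under 0.05, with the list's median in orange. The glutamine amide users lie mostly above 0 and the ammonia-releasing enzymes mostly below it, while the 9-gene set spans 0.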

How the data were processed

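Bulk RNA-Seq of 3 hepatocyte preparations per time point was analysed. The authors deposited raw read counts per gene for each library, without normalization, and the submitters' processing notes name FastQC 0.11.5, Trim Galore 0.6.4, STAR 2.6, HTSeq 0.12.4, DESeq2 and mm10. Counting mode and strand are not given in the sources used here. All 55450 identifiers matched GENCODE M21, which gave names, coordinates and exon lengths. Reads on no gene (24.3% to 32.7%) and ambiguous reads (4.27% to 5.29%) stayed out of library totals. The lines for unaligned and multiply aligned reads hold 0.

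The 17037 genes reaching 10 counts in 3 or more libraries were tested with edgeR 4.0.16 (R 4.3.3; TMM, quasi-likelihood test, time as the only term, Benjamini-Hochberg adjustment). Intervals of log2 fold changes are 95% intervals from its t distribution, and standard errors are the log2 fold change over the square root of F. DESeq2 1.42.0 and limma-voom (limma 3.58.1) were alternatives, beside other normalizations, filters, a stricter threshold, the replicate block and leaving out libraries. The fits were first tested on simulated data with 200 changed genes. A floor of 3 counts is 0.0825 to 0.0955 CPM and covers counting error only, since reads carry no molecular identifiers. The labels name separate replicates, and the study's text describes separate preparations.

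Named are the 9 genes and, per list, up to 3 called genes with the largest change in each direction, and defining cell type markers. Car5a, Slc38a3, Slc25a13, Mdh1, Sox9, Spp1, Camp, Elane, S100a9, Ngp, Ada, Ampd2, Ampd3, Lgr5, Rnf43 and Lect2 were added after their values were seen. The genes and lists were chosen with earlier results of these data known. Pycr3 was matched as Pycrl. A few genes are not reported here and are left out of the set and list counts.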

Additional observations from a re-analysis of the deposited data

How the results depend on the processing

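Each of the 9 log2 fold changes was recomputed under 18 alternatives. Otc, Gls2, Nags and Oat kept their direction and call under all of them. Glul kept its direction and missed the threshold in 5: an adjusted p under 0.01 required, 3 of the single libraries left out, and 0 h replicate 2 with 48 h replicate 3 left out, an alternative chosen after seeing the data. Cps1 went from 0.01 to -0.034 with limma-voom, -0.077 with upper quartile, -0.044 with TMM from protein-coding genes, -0.0051 without a filter and -0.033 with the replicate block, and ranged from -0.19 to 0.23 leaving out 1 library. With library size only, which shifted the median of all genes by 0.20 and the share of higher genes among all calls from 52.5% to 71.6%, Ass1 became 0.0063 and Asl 0.020. Leaving out 1 library gave -0.37 to 0.027 for Ass1 and -0.45 to 0.16 for Asl. Without 0 h replicate 2 and 48 h replicate 3, Asl became 0.034. The cause was not tested, and none of these 3 genes was called under any alternative.

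Over all genes, 3638 were higher and 3288 lower. An adjusted p under 0.01 left 2407 and 2082, and library size only gave 5308 higher and 2110 lower genes. In the other direction, upper quartile gave 3142 higher and 3924 lower genes, and TMM from protein-coding genes 3337 and 3710. With library size only, the genes called higher became 3 among the ammonia-releasing enzymes, 4 among regulators and 2 among periportal markers. The replicate block gave 1 higher ammonia-releasing enzyme, as did leaving out 0 h replicate 2 with 48 h replicate 3. Leaving out 1 library gave 0 to 1 higher ammonia-releasing enzymes, 0 to 1 lower glutamine users, 1 to 2 higher regulators and 1 to 2 higher periportal markers. The difference in the share of the 4 cycle enzymes ranged, leaving out 1 library, from -0.0095 to 0.245 percentage points.

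Depth limited these genes little, since each had at least 1096 counts in every library. The labels do not say whether same-numbered libraries belong together. Deviations from the group means correlated by 0.0335, -0.0674 and -0.138 for same-numbered libraries and by -0.0486 to 0.132 for the others. Such deviations sum to 0 within a group, so these values cannot settle a pairing. A replicate block gave 3237 higher and 2884 lower genes, and left the calls of all 9 genes as they were.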

Other observations

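Of 19 genes that regulate hepatocyte metabolism or the mitochondrial acylation of urea cycle enzymes, 6 were lower and 2 higher at 48 h in edgeR, so that 42.1% were called, near the 40.7% of all genes tested. The largest falls were in the transcription factor Cebpa (log2 fold change -0.97), the mitochondrial deacetylase Sirt3 (-0.93) and the glucagon receptor Gcgr (-0.92). Foxa3 (0.91) and Foxo1 (0.47) were higher, but the Foxo1 libraries overlapped, and without 0 h replicate 2 or 3 or 48 h replicate 1 or 2 Foxo1 was not called (adjusted p 0.092 to 0.109, edgeR).

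Zonal markers outside the 9 genes moved in both directions. Of 12 periportal markers, 6 were lower and 1 higher (58.3% called, beside 40.7% of all genes tested), with the largest falls in G6pc (log2 fold change -3.14), Sult5a1 (-2.06) and Cyp2f2 (-1.81) and the increase in Apoa4 (4.30). Of 14 perivenous markers, 4 were lower and 4 higher (57.1% called, beside the same 40.7%). Cyp2e1 (-1.71), Cyp27a1 (-1.46) and Cyp2c29 (-0.90) fell, whereas Slc1a4 (1.57), Tbx3 (0.80) and Axin2 (0.71) rose. Lect2 (0.42) was higher as well. Lgr5 (-0.0041) and Rnf43 (0.37), which like Axin2 are Wnt targets, were not called, but they were picked out after their values were seen.

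Markers of further cell types were also counted. Of 9 tested stellate cell markers 1 was higher and 1 lower (22.2% called, beside 40.7% of all genes tested, 21.4% higher and 19.3% lower), and the list summed to 76.0 to 123 TMM-normalized CPM at 0 h and 69.0 to 82.1 at 48 h, with overlap. The 7 bile duct markers summed to 9.15 to 20.7 and then to 16.3 to 26.0, also with overlap, with 2 tested and 1 higher. Of 6 erythroid markers 1 was tested and was lower. None of the 8 neutrophil or 7 lymphocyte markers passed the filter, and the neutrophil list went from at most 0.408 at 0 h to at least 0.594 at 48 h. These neutrophil sums rest on only 3 to 12 counts per library at 0 h and 20 to 38 at 48 h, the latter mostly of Camp and Elane. The part of these cells in the values of the 9 genes was not tested.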
